A study of Mus musculus with 10 samples.

Results

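Endothelial deletion of Rspo3 in the neonatal mouse lung was examined on 5 of the 10 bead arrays of the series, 3 labelled Rspo3-iECKO and 2 labelled Rspo3-WT, chosen by their labels alone. The Rspo3-iECKO arrays hold RNA from C57/Bl6 mice of genotype Rspo3fl/fl with Cdh5CreERT2, and the Rspo3-WT arrays hold RNA from Rspo3fl/fl mice without the Cre, so both groups carry the floxed alleles. The Cre gene is driven by the promoter of Cdh5 (VE-cadherin), which is active in endothelial cells, and its product acts only in the presence of tamoxifen. All RNA came from endothelial cells sorted from lungs at postnatal day 6 and was amplified before labelling. The other 5 arrays carry a second line, in which Evi/Wls was deleted in the same cells, and serve here only to show where the Rspo3 line differs. Neither the tamoxifen schedule, nor the sort markers, nor whether animals were pooled is stated in the labels. The p-values therefore cover only the spread between these 5 samples, which may be technical.

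R-spondins are secreted proteins that bind Lgr receptors and the membrane ligases Znrf3 and Rnf43. Binding removes the ligases from the cell surface, which leaves more Frizzled receptors there and strengthens the response to Wnt ligands. Wls escorts newly made Wnt proteins to the cell surface. Canonical Wnt signals act through beta-catenin and its partner transcription factors, and other Wnt signals act through calcium, calcineurin and NFAT factors or through the planar cell polarity proteins.

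Across 14484 genes, each read by its brightest detected probe, no gene differed between Rspo3-iECKO and Rspo3-WT at an adjusted p below 0.05 in limma's moderated test with Benjamini-Hochberg adjustment (0%). The smallest adjusted p was 0.0957, shared by Rtp4, Gvin1, Trim30a, Srpr and Itfg2. At an unadjusted p below 0.05, 1060 genes were counted (7.32%), 564 higher in Rspo3-iECKO (3.89%) and 496 lower (3.42%), where 724 would be counted among independent genes with no difference. Genes whose 3 Rspo3-iECKO arrays all lay on one side of both Rspo3-WT arrays are called non-overlapping below. There were 1617 such genes higher in Rspo3-iECKO (11.2%) and 1712 lower (11.8%). These shares, and those at the unadjusted threshold, are the background for every count of list members in the Rspo3 line below. Only 23 of the higher ones (0.159%) and 8 of the lower ones (0.0552%) also differed by 2-fold or more. Non-overlap is easier to meet with fewer arrays, and these counts rose whichever array was left out. The rise alone cannot tell whether the counts depend on single arrays, which was not tested. Without Rspo3-iECKO 1, 2 and 3 in turn, 28, 44 and 40 genes were higher and 18, 16 and 14 lower. Fold sizes depended on the background correction. The 2-fold counts were 1 higher and 1 lower with a normexp correction of offset 50. They were 0 and 0 without any correction or with the authors' normalized values. With median scaling in place of quantile normalization the median of all genes was 0.14 and the unadjusted counts were 1703 for higher genes and 194 for lower genes. Without the detection filter the unadjusted counts were 785 and 904. The filter admits genes more readily through the larger group. Of the genes tested, 655 were detected on no Rspo3-WT array and 173 on no Rspo3-iECKO array. The values below are therefore descriptions of 5 arrays, and none of the genes named in the Rspo3 line passed the adjusted threshold in the fit used here. With a trended robust prior 14 genes passed it: Oasl2, Pgap2, Rnf213, Rtp4, Gvin1, Noxo1, Srpr, Cox14, Irgm2, Trim30a, Cul4a, H2-D1, Itfg2 and Slc16a11.

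**Figure D1:**
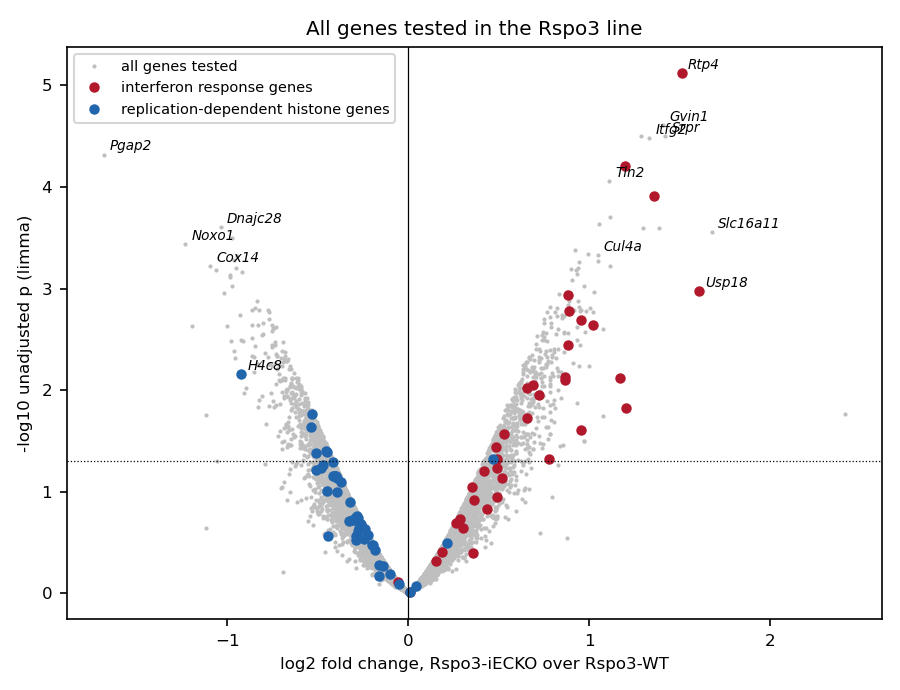
Each point is 1 of the 14484 genes, with its log2 fold change (Rspo3-iECKO over Rspo3-WT) on the x axis and minus log10 of its unadjusted p from limma on the y axis. Interferon response genes (red) lie mostly to the right of 0 and replication-dependent histone genes (blue) mostly to the left, and the dotted line marks an unadjusted p of 0.05.

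The 5 arrays were alike in quality. Between 49.8% and 51.3% of probes were detected per array, and the median raw intensity lay between 96.5 and 110. Correlations over the 14484 genes were 0.966 to 0.972 among the Rspo3-iECKO arrays, 0.962 between the Rspo3-WT arrays and 0.962 to 0.966 between groups, so the Rspo3-iECKO arrays were most like each other and the Rspo3-WT arrays were no more alike than arrays of different groups. The number of arrays limits the precision, with a median SE of 0.214 for a log2 difference. Xist was high on Rspo3-iECKO 1 and Rspo3-WT 2, at 9.05 and 9.14 in log2 normalised intensity, and lay between 4.25 and 4.67 on the other 3 arrays, where the Y-linked Eif2s3y was high instead, so each group mixed the sexes. A fit with sex as a factor, chosen after seeing the data, also gave 0 genes at the adjusted threshold, with 594 higher genes and 523 lower genes at the unadjusted threshold.

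The deleted gene could not be followed. Neither of the 2 Rspo3 probes was detected on any of the 5 arrays: the brighter read raw intensities of 91.2, 90.8 and 91.6 on Rspo3-iECKO arrays and 104 and 93.9 on Rspo3-WT arrays. The labels do not name the deleted exons or place the probes relative to them, so Rspo3 does not check the labels. Cdh5, the source of the Cre promoter, read 9.81, 9.99 and 9.65 in Rspo3-iECKO and 9.65 and 9.92 in Rspo3-WT, in log2 normalised intensity, the scale of all levels below. Wls read 5.08, 5.97 and 6.05 in Rspo3-iECKO and 6.07 and 5.74 in Rspo3-WT, with Rspo3-iECKO 1 the lowest. In the Evi/Wls line Wls itself had a log2 fold change of -1.10 (SE 0.27).

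Of the R-spondin receptors and ligands, few could be measured. Rspo2, Lgr4, Lgr6, Znrf3 and Rnf43 were not detected on 2 or more arrays, Rspo1 and Rspo4 differed by 0.29 and -0.29 on the log2 scale, and Lgr5 was detected on 1 array of each group. Among 9 Wnt ligands and secretion factors tested, none reached an unadjusted p below 0.05, and Wnt3a (-0.35), Wnt5a (0.28) and the acyltransferase Porcn (0.32) lay farthest from 0. Among 13 Frizzled receptors and co-receptors, only Reck did, where 7.32% of all genes did in either direction. Reck, a membrane protein that works with Adgra2 as a co-receptor for Wnt7 ligands, read 5.15, 5.05 and 4.90 in Rspo3-iECKO and 4.37 and 4.43 in Rspo3-WT. The groups did not overlap, and its log2 difference was 0.64 (SE 0.19, adjusted p = 0.472 in limma). Its partner Adgra2 differed by 0.21 and Frizzled 4, a main endothelial Frizzled, by -0.03, both with overlapping arrays. Fzd5 and Lrp5 each differed by 0.51 with wider spread.

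Inside the cell, 2 of 21 members of the beta-catenin destruction and transcription complexes reached an unadjusted p below 0.05, one in each direction. That threshold was reached by 7.32% of all genes. Axin1, a scaffold of the destruction complex, read 6.70, 6.68 and 6.27 in Rspo3-iECKO and 6.07 and 5.94 in Rspo3-WT, a log2 difference of 0.55 (SE 0.21). Bcl9, a co-activator that binds beta-catenin, read 5.25, 5.24 and 4.91 in Rspo3-iECKO and 5.54 and 5.97 in Rspo3-WT, a difference of -0.62 (SE 0.22). Neither group pair overlapped, and beta-catenin itself (Ctnnb1) differed by 0.09.

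Of 16 known beta-catenin targets tested, 10 lay lower and 6 higher, with a median of -0.06, where all genes had a median of -0.0086 and quartiles of -0.18 and 0.16. Axin2, the feedback inhibitor most often used as a read-out of the pathway, read 6.22, 6.06 and 6.20 in Rspo3-iECKO and 6.59 and 6.26 in Rspo3-WT. All 3 Rspo3-iECKO arrays lay below both Rspo3-WT arrays, yet the difference of -0.26 (SE 0.20, adjusted p = 0.832 in limma) was close to its error. The extracellular Wnt inhibitors Wif1 and Notum, also induced by the pathway, differed by -0.42 and -0.32. Only the adhesion receptor Cd44 (-0.59) and the junction protein Cldn3 (-0.52) reached an unadjusted p below 0.05. At that threshold 3.42% of all genes were lower. Ccnd1, Myc and Nkd1 differed by 0.19, 0.21 and 0.04.

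Of 20 calcineurin and NFAT genes, 16 lay higher, with a median of 0.08, where 48.6% of all genes lay higher. The median was 0.049 without Rspo3-iECKO 2 and 0.19 without Rspo3-iECKO 3, and 12 of 20 genes were higher than Rspo3-WT 2 alone. Plcg1, the phospholipase that starts calcium release below receptor tyrosine kinases, read 5.0, 4.80 and 5.17 in Rspo3-iECKO and 4.22 and 4.28 in Rspo3-WT, where it was not well above background. It was at least 1.58-fold higher, and the calcium-dependent kinase gene Camk2d was higher by 0.70 (SE 0.22). The NFAT factors Nfatc1 (0.15), Nfatc2 (-0.05), Nfatc3 (0.06) and Nfatc4 (-0.21) and the calcineurin read-out Rcan1 (0.07) stayed within their errors. Among 15 planar cell polarity genes, the cadherin gene Celsr2 (-0.55) and the ciliary gene Invs (-0.52) were lower at an unadjusted p below 0.05. At that threshold 3.42% of all genes were lower.

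The genes that separated the groups best lay outside the Wnt pathway, and the plot of the 12 genes of smallest p in each direction shows them array by array. Their functions were mixed. Srpr, the alpha subunit of the receptor that docks ribosomes at the endoplasmic reticulum, read 5.62, 6.09 and 5.55 in Rspo3-iECKO and 4.33 and 4.34 in Rspo3-WT. It was detected on all 3 Rspo3-iECKO arrays and on neither Rspo3-WT array, so it was at least 2.68-fold higher (log2 difference 1.42, SE 0.22, adjusted p = 0.0957 in limma). The other 29 members of that targeting machinery tested did not reach an unadjusted p below 0.05, and the list's median was 0.01. Itfg2, a subunit of the KICSTOR complex that holds back mTORC1 at the lysosome, read 5.81, 5.90 and 6.22 in Rspo3-iECKO and 4.70 and 4.59 in Rspo3-WT, with no overlap and a log2 difference of 1.33 (SE 0.21). Slc16a11, a transporter of the monocarboxylate family, read 6.21, 6.44 and 5.10 in Rspo3-iECKO and 4.21 and 4.27 in Rspo3-WT. Rspo3-iECKO 3 was the nearest to the controls, and the gene was at least 3.02-fold higher. Srpr and Slc16a11 passed the detection filter only through the group where they were high, as did Mavs and Gng11, described below.

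**Figure D2:**
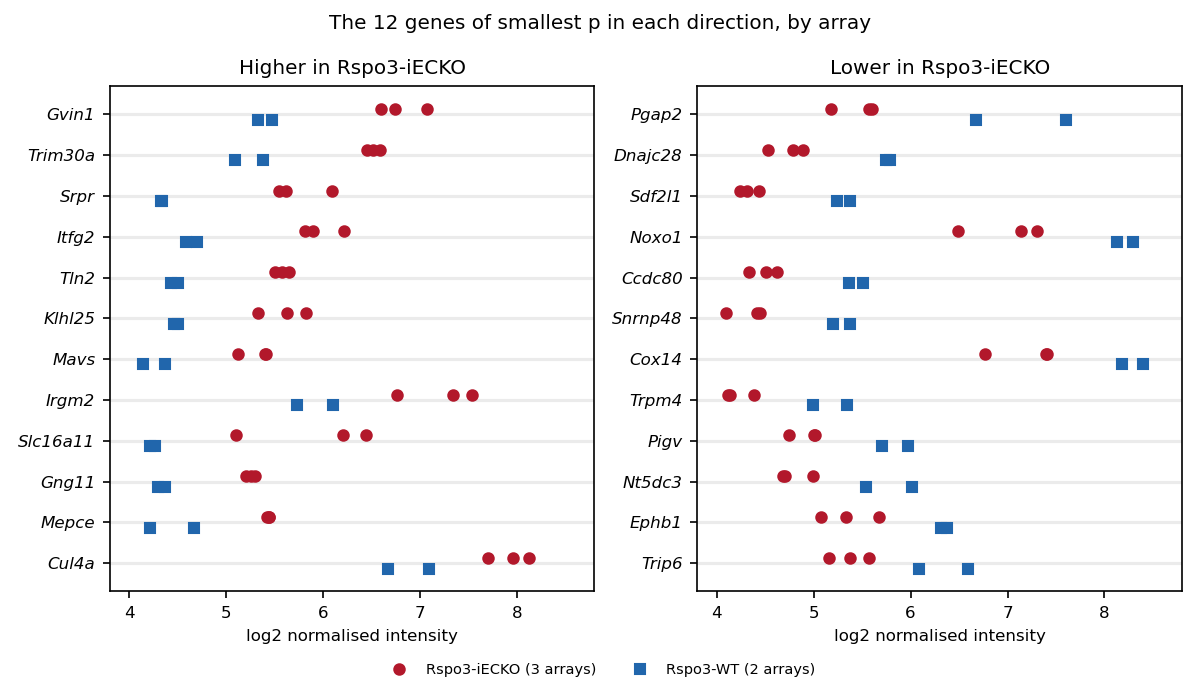
Log2 normalised intensity on each array for the 12 genes of smallest unadjusted p in each direction outside the interferon and MHC class I lists, with the 3 Rspo3-iECKO arrays as red circles above the 2 Rspo3-WT arrays as blue squares. No group overlaps another for any of the 24 genes, and most genes lie below 7 on this scale.

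Other genes higher on all 3 Rspo3-iECKO arrays were spread over adhesion, protein turnover, innate signalling and RNA. Tln2, a talin that links integrins to actin, read 5.65, 5.50 and 5.58 in Rspo3-iECKO and 4.50 and 4.43 in Rspo3-WT. The other 26 integrin and adhesion genes tested did not reach an unadjusted p below 0.05. Cul4a, the scaffold of a large class of ubiquitin ligases, was the brightest of the 12, at 8.12, 7.96 and 7.70 in Rspo3-iECKO and 7.09 and 6.67 in Rspo3-WT (log2 difference 1.05, SE 0.22). Klhl25, an adaptor of cullin ligases, was higher by 1.11 (SE 0.21). Mavs, the mitochondrial adaptor of RNA sensing, was at least 1.95-fold higher, its Rspo3-WT arrays being near background. The same held for Gng11, which encodes a gamma subunit of G proteins (at least 1.88-fold). Mepce, which caps a small nuclear RNA, read 5.44, 5.42 and 5.44 in Rspo3-iECKO and 4.67 and 4.21 in Rspo3-WT. Its spread lay almost wholly in the controls.

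Pgap2, which remodels the lipid of glycosylphosphatidylinositol (GPI) anchors, had the lowest p among lower genes, at 5.60, 5.57 and 5.18 in Rspo3-iECKO and 6.67 and 7.60 in Rspo3-WT. The gap between the nearest arrays was 1.07, and the gene was 3.21-fold lower (log2 difference -1.68, SE 0.27, adjusted p = 0.116 in limma). Without Rspo3-WT 1 it passed the adjusted threshold, with a log2 difference of -2.16, and without Rspo3-WT 2 it did not, at -1.23. Pigv, a mannosyltransferase that builds the same anchor, read 5.0, 4.75 and 5.01 in Rspo3-iECKO and 5.71 and 5.97 in Rspo3-WT, a difference of -0.92 (SE 0.20). With Pigc (-0.43) these were 3 of the 23 GPI anchor genes tested at an unadjusted p below 0.05, all lower. Of all genes, 3.42% were lower at that threshold, and the list's median was -0.01. Pgap2 and Pigv had been picked for their small p, so the count was partly fixed by that choice.

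Noxo1, the organiser subunit of an NADPH oxidase that makes superoxide, was the brightest of the lower 12 beside Cox14. It read 7.14, 6.49 and 7.30 in Rspo3-iECKO and 8.13 and 8.29 in Rspo3-WT, and was 2.35-fold lower (log2 difference -1.23, SE 0.25). Prdx3, a mitochondrial peroxidase, lay the other way at 0.77 (SE 0.21), and the other 28 oxidase and antioxidant genes did not reach an unadjusted p below 0.05. Cox14, an assembly factor of cytochrome oxidase, read 7.40, 7.41 and 6.77 in Rspo3-iECKO and 8.40 and 8.18 in Rspo3-WT, 2.14-fold lower. Among 27 genes of that enzyme and its assembly the median was -0.02, and the assembly factor Cox18 was higher by 0.56. Complex I and ATP synthase had 0 of 34 and 0 of 18 genes at an unadjusted p below 0.05 in limma. That threshold was reached by 7.41% of the cytochrome oxidase list and by 7.32% of all genes, in either direction.

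The remaining lower genes were dim. Sdf2l1, a chaperone partner in the endoplasmic reticulum, read 4.31, 4.44 and 4.24 in Rspo3-iECKO and 5.37 and 5.24 in Rspo3-WT and was detected on 1 Rspo3-iECKO array. Of the other chaperone and stress genes of that compartment, Sil1 (0.68), Ddit3 (0.51) and Pdia6 (0.46) were higher at an unadjusted p below 0.05, and the median of the 31 tested was 0.05. Trpm4, a cation channel opened by calcium, was at least 1.79-fold lower, since it was not well above background in Rspo3-iECKO. Ephb1, a receptor for membrane-bound ephrins, read 5.67, 5.33 and 5.08 in Rspo3-iECKO and 6.38 and 6.31 in Rspo3-WT. Ccdc80 (-0.95), a secreted matrix protein, Dnajc28 (-1.04), a J-domain protein, Snrnp48 (-0.96), a protein of the minor spliceosome, Nt5dc3 (-0.99), a protein with a nucleotidase domain, and Trip6 (-0.98), a LIM protein of focal adhesions, completed the 12.

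For 8 of the leading genes another detected probe did not show the same size of difference. The second detected probe of Pgap2 differed by 0.28, and was detected on 2 Rspo3-iECKO arrays and no Rspo3-WT array. Further probes gave 0.17, -0.16 and 0.12 for Cul4a, -0.20 and -0.16 for Tln2, 0.11 and 0.056 for Gvin1, 0.25 for Rtp4, -0.11 for Dnajc28, -0.055 for Ephb1 and -0.37 for Trip6. The probe used was brighter in every case. The values above therefore belong to 1 probe of each of these genes, and whether the probes read different transcripts was not tested.

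Replication-dependent histones formed the largest group on the lower side. These genes encode the core and linker histones that package new DNA, and their messenger RNAs, which mostly end in a stem-loop rather than a poly(A) tail, accumulate in S phase. Of 57 listed, 47 were tested, and 43 lay lower in Rspo3-iECKO, with a median log2 difference of -0.29, where 51.4% of all genes lay lower and 48.6% higher. The arrays did not overlap for 25 lower genes and 1 higher gene, against backgrounds of 11.8% and 11.2% of all genes. At an unadjusted p below 0.05, 6 were lower and 1 was higher, against 3.42% and 3.89% of all genes. The shift ran through the classes: all 12 H2A genes (median -0.46), 9 of 11 H2B genes (-0.22), all 8 H3 genes (-0.32), all 11 H4 genes (-0.29) and 3 of 5 H1 genes (-0.27) were lower.

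H4c8 read 5.26, 6.10 and 6.26 in Rspo3-iECKO and 6.63 and 6.96 in Rspo3-WT, the largest difference of the group at -0.92 (SE 0.28, adjusted p = 0.473 in limma). H2ac22 read 7.02, 6.91 and 7.06 in Rspo3-iECKO and 7.57 and 7.49 in Rspo3-WT, with little spread in either group (-0.53, SE 0.19). H3c6 read 9.09, 8.92 and 9.16 in Rspo3-iECKO and 9.61 and 9.42 in Rspo3-WT, so bright genes took part as well as dim ones. H2ac6 differed by -0.54 (SE 0.21). H2bc4 was the exception at 5.39, 5.67 and 5.70 in Rspo3-iECKO and 5.32 and 4.92 in Rspo3-WT (0.47, SE 0.21), and was singled out after its values were seen.

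Array by array, 28, 38 and 31 of the 47 histone genes lay below both Rspo3-WT arrays on Rspo3-iECKO 1, 2 and 3, where 34.7%, 32.9% and 32.6% of all genes did. The controls differed from each other too. The Rspo3-iECKO mean was lower than Rspo3-WT 1 for 45 of 47 genes (median difference -0.47) and lower than Rspo3-WT 2 for 35 of 47 (median difference -0.16). Refitted without Rspo3-WT 1 the list's median was -0.16, and without Rspo3-WT 2 it was -0.46. With median scaling in place of quantile normalization the list's median was -0.024 while that of all genes was 0.14, and the shift relative to all genes was -0.17. Replication-dependent histone genes are near-identical within a class, so probes may read several copies and the 47 values are not separate measurements.

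Other cell cycle lists had medians close to all genes. The 42 DNA replication and S-phase genes had a median of 0.04 and the 47 mitosis genes a median of 0.03. Both depended on the controls: the replication median was 0.21 without Rspo3-WT 1 and -0.055 without Rspo3-WT 2, and the mitosis median was 0.14 and -0.13. Among the replication genes, the fork subunit Gins4 read 6.77, 6.79 and 6.57 in Rspo3-iECKO and 7.51 and 7.28 in Rspo3-WT (-0.69, SE 0.20), while the histone chaperone subunit Chaf1b (0.69) and the primase subunit Prim2 (0.55) were higher. The structural RNAs Rpph1 and Rnu6, which also lack poly(A) tails, differed by -0.36 and -0.17 with overlapping arrays. Their part in the histone result was not tested.

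The histone genes ran the other way in the Evi/Wls line. In the fit to all 10 arrays, 44 of 47 were lower in Rspo3-iECKO than in Rspo3-WT (median -0.29), and 42 of 47 were higher in Evi-iECKO than in Evi-WT (median 0.32). Of all 14484 genes, 7450 were lower in the first comparison and 7452 higher in the second. In limma's test of the difference between the 2 effects, no gene of the 14484 passed an adjusted p of 0.05 (0%), and 883 passed an unadjusted p of 0.05 (6.1%). Of the 47 histone genes, 19 (40.4%) passed the unadjusted threshold, and in all 19 the Rspo3 effect was the lower one. The smallest adjusted p among them was 0.699, for H1f4, whose Rspo3 effect was -0.35 and whose Evi/Wls effect was 0.86.

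**Figure D3:**
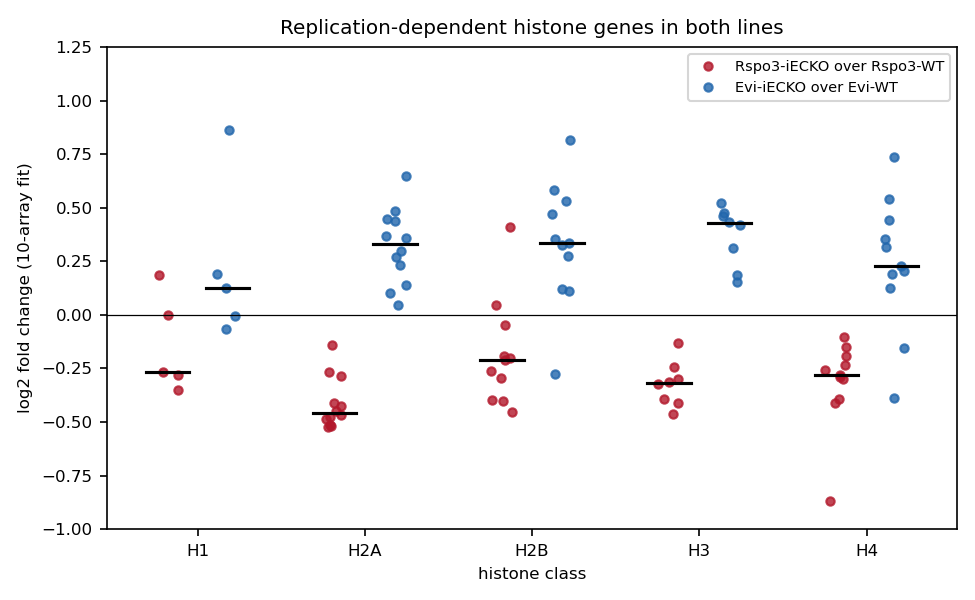
Log2 fold changes of the 47 replication-dependent histone genes by class, from the fit to all 10 arrays, with Rspo3-iECKO over Rspo3-WT in red on the left and Evi-iECKO over Evi-WT in blue on the right of each class, and black bars for class medians. All H2A, H3 and H4 points of the Rspo3 line lie below 0, and most points of the Evi/Wls line lie above 0.

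Interferon response genes lay on the higher side. These genes are switched on by interferons and by sensing of foreign nucleic acid, and 36 of 38 tested had higher means in Rspo3-iECKO, 22 of them at an unadjusted p below 0.05, with a median of 0.59, where 48.6% of all genes had higher means and 3.89% were higher at that threshold. Their median deviation from the Rspo3-WT mean was 0.89, 0.65 and 0.32 on Rspo3-iECKO 1, 2 and 3, so Rspo3-iECKO 3 lay nearest the controls. The Evi/Wls line showed a similar shift. In the fit to all 10 arrays, 35 of 38 were higher in Evi-iECKO (median 0.49), and 16 had an unadjusted p below 0.05 there. Of all 14484 genes, 7452 were higher in Evi-iECKO and 1165 had an unadjusted p below 0.05 in that comparison, in either direction. Between lines, 2 of 38 (5.26%) differed at that threshold in limma, against 6.1% of all genes. Rtp4, a chaperone of receptors that is induced by interferon, read 6.64, 6.47 and 6.28 in Rspo3-iECKO and 4.96 and 4.95 in Rspo3-WT. Usp18, which removes the modifier Isg15, read 7.92, 6.57 and 6.41 in Rspo3-iECKO and 5.15 and 5.57 in Rspo3-WT, so that its size rests on Rspo3-iECKO 1 more than that of Rtp4 does. Gbp3, a guanylate-binding protein, was even across the group at 5.81, 5.88 and 5.72 in Rspo3-iECKO and 4.74 and 4.47 in Rspo3-WT.

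Outside that list, 3 of the 12 higher genes of smallest p are also known as interferon-induced. Gvin1, a very large interferon-inducible GTPase, read 7.07, 6.60 and 6.74 in Rspo3-iECKO and 5.47 and 5.33 in Rspo3-WT. Trim30a, an interferon-induced TRIM protein, read 6.59, 6.45 and 6.52 in Rspo3-iECKO and 5.38 and 5.09 in Rspo3-WT. Irgm2, an immunity-related GTPase, read 7.54, 7.34 and 6.76 in Rspo3-iECKO and 6.10 and 5.73 in Rspo3-WT. Among 20 genes of MHC class I presentation, 8 were higher at an unadjusted p below 0.05, against 3.89% of all genes, and the median was 0.36. They included Nlrc5, the transactivator of class I genes, at 6.44, 5.68 and 5.55 in Rspo3-iECKO and 4.33 and 4.68 in Rspo3-WT (1.38, SE 0.27), and the class I heavy chain gene H2-D1 (0.94, SE 0.22).

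RefSeq promoter windows, of 250 bases before and 50 after the start of the gene in the GRCm38.p6 table, were searched for 2 motifs. Each was already known from some genes of the interferon or histone group. The interferon-stimulated response element core, searched as GAAA, any 2 bases and GAAA on either strand, was in 15 of 35 windows of the interferon response genes (42.9%) and in 3.44% of all 32851 windows. The octamer ATTTGCAT, known from H2B promoters, was on either strand in 5 of 10 H2B windows (50%), 4 of 12 H2A windows (33.3%), 9 of 43 windows of all histone genes tested (20.9%), so in no H1, H3 or H4 window, and 1.74% of all windows. Of the genes tested, 10558 of 14484 matched a window by symbol. The windows of Irgm2 (chr11:58214727-58215026, plus strand) and Trim30a (chr7:104465144-104465443, minus strand) are shown for genes higher in Rspo3-iECKO, and those of H2bc12 (chr13:22035571-22035870, plus strand) and H2bc14 (chr13:21721794-21722093, plus strand) for genes lower there, each read 5′ to 3′ along the gene with the matched motif in capitals. The match begins 64 bases before the gene's start in Irgm2, 36 in Trim30a, 30 in H2bc12 and 25 in H2bc14.
Irgm2: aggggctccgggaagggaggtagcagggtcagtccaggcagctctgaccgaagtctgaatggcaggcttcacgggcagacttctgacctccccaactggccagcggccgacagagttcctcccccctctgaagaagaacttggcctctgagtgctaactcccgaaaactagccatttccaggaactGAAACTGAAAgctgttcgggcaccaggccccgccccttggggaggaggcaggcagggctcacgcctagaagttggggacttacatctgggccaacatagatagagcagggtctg
Trim30a: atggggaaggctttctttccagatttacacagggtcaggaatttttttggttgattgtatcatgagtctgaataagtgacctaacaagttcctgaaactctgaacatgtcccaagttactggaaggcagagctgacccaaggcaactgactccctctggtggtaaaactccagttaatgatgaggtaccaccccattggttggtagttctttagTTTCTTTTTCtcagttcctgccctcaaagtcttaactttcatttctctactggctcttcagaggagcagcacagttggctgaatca
H2bc12: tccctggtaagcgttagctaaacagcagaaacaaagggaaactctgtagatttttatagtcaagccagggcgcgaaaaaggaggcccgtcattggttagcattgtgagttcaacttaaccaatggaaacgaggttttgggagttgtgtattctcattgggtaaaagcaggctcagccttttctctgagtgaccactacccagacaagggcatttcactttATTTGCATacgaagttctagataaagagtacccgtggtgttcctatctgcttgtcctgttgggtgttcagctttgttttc
H2bc14: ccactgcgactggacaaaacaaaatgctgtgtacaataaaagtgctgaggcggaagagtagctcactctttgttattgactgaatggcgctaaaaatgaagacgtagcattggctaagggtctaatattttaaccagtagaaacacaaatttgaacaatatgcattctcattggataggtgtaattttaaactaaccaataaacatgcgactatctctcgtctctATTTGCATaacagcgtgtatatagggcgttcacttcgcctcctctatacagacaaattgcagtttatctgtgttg
H2bc12 read 9.74, 9.59 and 9.63 in Rspo3-iECKO and 10.22 and 9.98 in Rspo3-WT (-0.45, SE 0.20), and H2bc14, shown as a weaker member, read 9.79, 9.81 and 9.90 in Rspo3-iECKO and 10.25 and 9.94 in Rspo3-WT (-0.26, SE 0.20). Irgm2 and Trim30a are not among the interferon response genes whose windows were counted. A match describes letters in the window and nothing about binding or about the change in Rspo3-iECKO.

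Most of the other lists stayed close to all genes. Of 71 lists, 61 had a median within 0.1 of 0. Heparan sulfate proteoglycans and the enzymes that build their sugar chains, which hold Wnt ligands and growth factors at the cell surface, were among the exceptions. Of 32 tested, 23 lay lower, with a median of -0.20. The arrays did not overlap for 7 lower genes and 1 higher gene, against 11.8% and 11.2% of all genes. Gpc4, a cell-surface glypican, read 4.38, 4.25 and 4.50 in Rspo3-iECKO and 4.82 and 5.04 in Rspo3-WT (-0.55, SE 0.20). Xylt1, which starts the sugar chain, read 4.42, 4.73 and 4.42 in Rspo3-iECKO and 5.08 and 4.91 in Rspo3-WT (-0.48, SE 0.20). Both were dim, and Glce, an epimerase of the chain, differed by 0.33 the other way. Refits without 1 array gave list medians between -0.19 and -0.091. It was -0.091 without Rspo3-iECKO 1, -0.11 without Rspo3-WT 1, -0.096 over genes detected on all 5 arrays and -0.053 from the authors' normalized values.

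**Figure D4:**
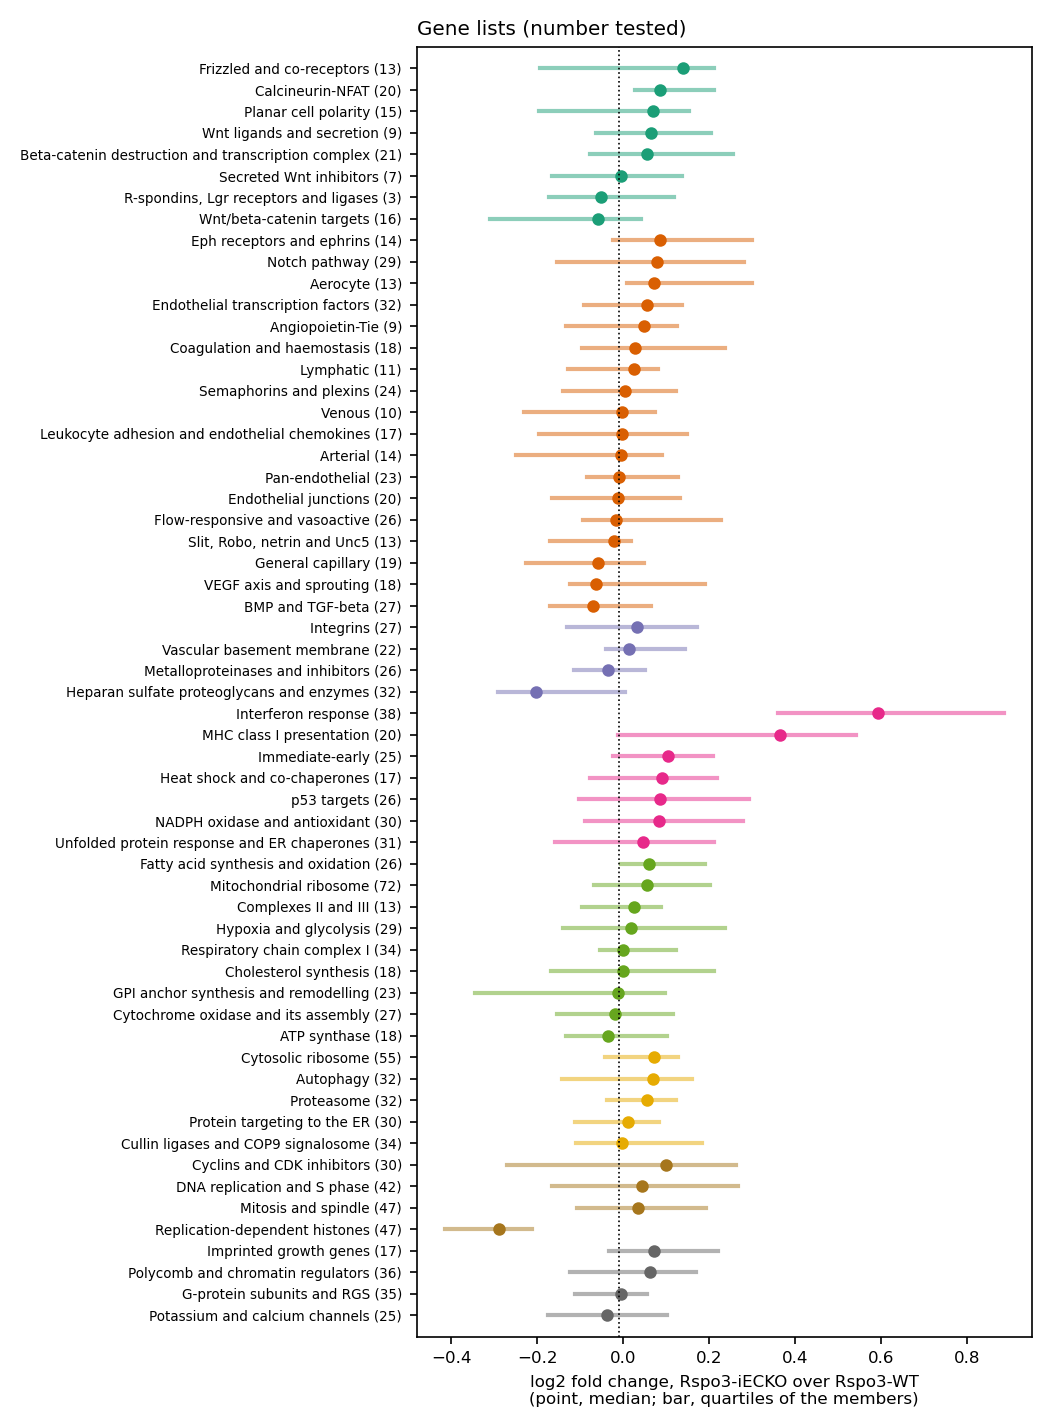
Median (point) and quartiles (bar) of the log2 fold change, Rspo3-iECKO over Rspo3-WT, for gene lists coloured by broad function, with the number of genes tested in brackets and the median of all genes as a dotted line. Interferon response and MHC class I lie to the right, replication-dependent histones and heparan sulfate genes to the left, and most other medians lie within 0.1 of 0.

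Vascular identity and junction lists had medians close to that of all genes. None of 23 pan-endothelial genes reached an unadjusted p below 0.05, where 7.32% of all genes did in either direction. The medians of the general capillary, aerocyte, arterial and venous lists lay between -0.06 and 0.07. Of 19 general capillary genes, 4 were lower with non-overlapping arrays and none higher. Hilpda and Clec1a (-0.47), a C-type lectin, were lower at an unadjusted p below 0.05, as were 3.42% of all genes. Of 10 venous genes, 3 were lower with non-overlapping arrays and none higher, where 11.8% of all genes were lower in this way. Hilpda, a lipid droplet protein induced by low oxygen, read 7.44, 7.35 and 7.12 in Rspo3-iECKO and 8.10 and 8.01 in Rspo3-WT (-0.75, SE 0.20). Of the other 28 hypoxia and glycolysis genes none was lower at an unadjusted p below 0.05, and Pkm (0.55), Ndrg1 (0.53) and Pfkp (0.50) were higher. Cav1, the structural protein of caveolae, read 6.77, 7.02 and 7.17 in Rspo3-iECKO and 7.59 and 7.39 in Rspo3-WT (-0.50, SE 0.21). Klf4, a flow-responsive transcription factor, was higher by 0.54. Of 20 junction genes, Ctnnd1, a catenin that stabilises VE-cadherin, differed by -0.46 (SE 0.20), and the other 19 did not reach an unadjusted p below 0.05.

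Among guidance and signalling families, Eph receptors and ephrins, semaphorins and plexins, and the Notch list had members at an unadjusted p below 0.05 on both sides. Of all genes, 3.89% were higher and 3.42% lower at that threshold. Beside Ephb1, the ephrin ligands Efna5 and Efnb3 were at least 1.41-fold and 1.31-fold higher. Sema5a, a membrane semaphorin, read 5.49, 5.19 and 5.07 in Rspo3-iECKO and 4.67 and 4.39 in Rspo3-WT. Nrp2, a semaphorin and VEGF co-receptor, differed by -0.46 (SE 0.20), and the Robo ligand Slit2 was higher by 0.67 (SE 0.24). In the Notch list of 29 genes, Hes5, a target gene, was at least 1.37-fold lower and Nrarp, a feedback gene, was higher by 0.48. None of 27 BMP and TGF-beta genes reached an unadjusted p below 0.05, where 7.32% of all genes did in either direction. The arrays did not overlap for 5 lower genes and 1 higher gene of that list, against 11.8% and 11.2% of all genes. Cx3cl1, a membrane-bound chemokine, was higher by 0.74 (SE 0.25), with Rspo3-iECKO 1 at 6.02 and the other arrays of the group at 5.28 and 5.30, against 4.80 and 4.79 in Rspo3-WT. Plat, the tissue plasminogen activator, read 7.39, 7.42 and 6.80 in Rspo3-iECKO and 6.58 and 6.64 in Rspo3-WT.

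Growth control and chromatin genes also split. Ccng1, a p53 target, read 8.01, 7.85 and 8.01 in Rspo3-iECKO and 6.97 and 7.30 in Rspo3-WT (0.82, SE 0.20). Cdkn1a, a cell cycle inhibitor that p53 also induces, read 7.83, 7.85 and 7.68 in Rspo3-iECKO and 7.15 and 7.42 in Rspo3-WT. The other 24 p53 targets did not reach an unadjusted p below 0.05, and the list's median was 0.08. Ring1, the ligase of Polycomb complexes, read 5.58, 5.52 and 5.01 in Rspo3-iECKO and 4.27 and 4.59 in Rspo3-WT. Its partners Cbx2 (-0.64, SE 0.20) and Pcgf6 (at least 1.35-fold lower) lay the other way, and Dnmt3b, a DNA methyltransferase, differed by -0.56 (SE 0.21). Among potassium and calcium channels, Kcnk5 read 6.90, 7.46 and 6.83 in Rspo3-iECKO and 5.77 and 6.46 in Rspo3-WT, while the channel subunit Kcnab2 was at least 1.89-fold lower.

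Families that share a symbol stem were described in the same way, for 216 stems with 8 genes or more. The highest medians belonged to Mcm (0.24), with 6 of 8 genes higher, and to Tcf (0.23), with 8 of 8 higher. The Mcm stem holds the subunits of the replicative helicase and also Mcm10 (-0.035) and Mcm3ap (0.087), which are not among them, and no member reached an unadjusted p below 0.05. The Tcf stem joins unrelated transcription factors, and Tcf15 (1.07) was its only member at an unadjusted p below 0.05. Klhl, a stem that includes cullin adaptors, had 16 of 23 genes higher, of which 5 passed an unadjusted p of 0.05, as did 2 of its lower genes. Med, the Mediator complex, had 19 of 28 higher, of which 5 passed that threshold, as did 1 lower gene, where 3.89% of all genes were higher and 3.42% lower. The lowest medians belonged to the pregnancy-specific glycoproteins Psg (-0.24, 8 of 10 lower) and the clustered protocadherins Pcdhb (-0.22, 7 of 11 lower), whose near-identical members may share probes.

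Markers of other cell types were measured on all 5 arrays. In bulk RNA, fewer cells of a type and less RNA per cell cannot be told apart. The summed normalised intensity of the pan-endothelial list was 16794 to 17900 in Rspo3-iECKO and 16179 and 17106 in Rspo3-WT. The 9 airway markers tested of 14 summed to 171 to 316 in Rspo3-iECKO and to 788 and 200 in Rspo3-WT, with Rspo3-WT 1 apart from the rest. Scgb3a2, a secretoglobin of airway cells, read 5.04, 4.67 and 4.98 in Rspo3-iECKO and 7.12 and 4.78 in Rspo3-WT. The 13 alveolar type 2 markers tested of 14 summed to 534 to 916 in Rspo3-iECKO and to 1017 and 527 in Rspo3-WT, and no member reached an unadjusted p below 0.05. Erythroid markers, 8 tested of 15, summed to 3154 to 4121 in Rspo3-iECKO and to 3730 and 4663 in Rspo3-WT. Leukocyte markers, 16 tested of 32, summed to 195 to 239 in Rspo3-iECKO and to 185 and 220 in Rspo3-WT, and Ptprc, the common leukocyte antigen, was not detected on 2 or more arrays. For 3 of the marker lists plotted the sums did not overlap and were lower in Rspo3-iECKO. Of all single genes, 11.8% were lower in this way. General epithelium markers, 9 tested of 18, summed to 118 to 136 in Rspo3-iECKO and to 165 and 145 in Rspo3-WT, and Cldn3, named above as a beta-catenin target, is one of them. Alveolar type 1 markers, 9 tested of 13, summed to 544 to 568 in Rspo3-iECKO and to 586 and 680 in Rspo3-WT. Mesothelium and nerve markers, 6 tested of 13, summed to 37.1 to 58.4 in Rspo3-iECKO and to 65.2 and 82.2 in Rspo3-WT. Only 4 of the 9 general epithelium, 7 of the 9 alveolar type 1 and 2 of the 6 mesothelium and nerve markers were detected on all 5 arrays. Signal near background therefore enters these sums.

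**Figure D5:**
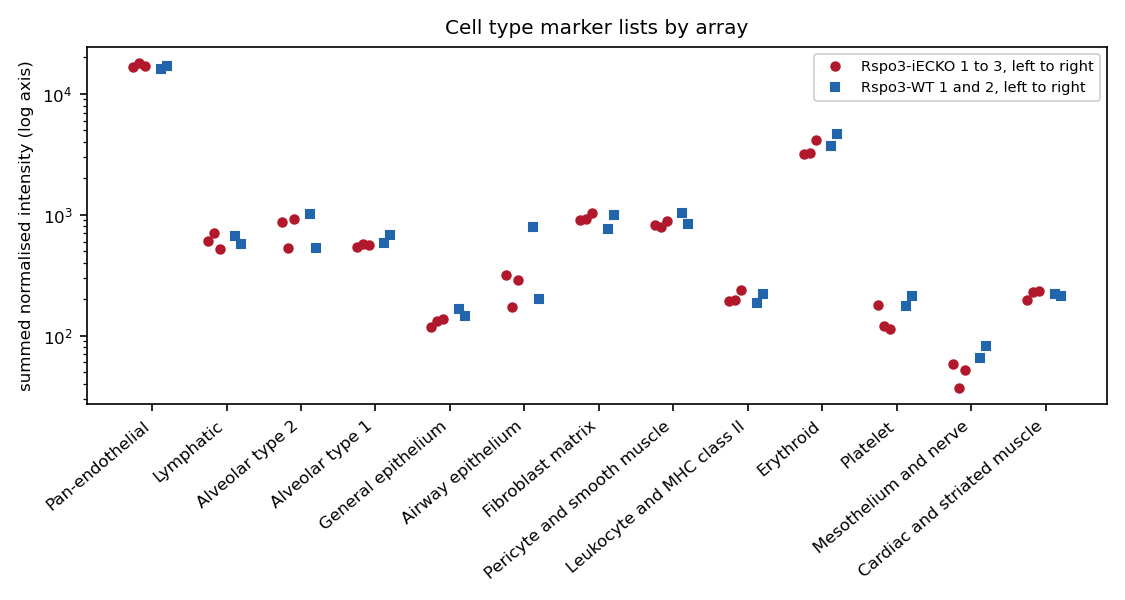
Summed normalised intensity (log axis) of the tested members of each cell type marker list on each array, with the 3 Rspo3-iECKO arrays as red circles to the left of the 2 Rspo3-WT arrays as blue squares. The sums of general epithelium, alveolar type 1 and mesothelium and nerve are lower on all 3 Rspo3-iECKO arrays than on both Rspo3-WT arrays, the other lists overlap, and Rspo3-WT 1 stands apart for airway epithelium, at 788.

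Single markers of other cells moved with the groups. Dcn, a fibroblast proteoglycan, was at least 1.66-fold higher, at 4.80, 5.15 and 5.21 in Rspo3-iECKO and 4.11 and 4.13 in Rspo3-WT, where it was not well above background. The 17 fibroblast markers tested of 21 summed to 911 to 1040 in Rspo3-iECKO and to 765 and 1002 in Rspo3-WT, and only Dcn and Meox1 (0.59) reached an unadjusted p below 0.05. Ngfr, a nerve and mesenchymal marker, read 4.34, 4.51 and 4.46 in Rspo3-iECKO and 5.19 and 5.23 in Rspo3-WT. It is a member of the mesothelium and nerve list summed above, so the 2 results are not separate. Alox12, a platelet lipoxygenase, differed by -0.80 (SE 0.21), and the 4 platelet markers tested of 12 summed to 113 to 180 in Rspo3-iECKO and to 176 and 211 in Rspo3-WT. The part of these cells in the differences above was not tested.

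Several of the leading genes also differed between the lines at an unadjusted p below 0.05 in limma's test of the difference. That threshold was passed by 6.1% of all genes, and no gene passed adjustment. The leading genes were picked for a small p in the Rspo3 line, and that effect is part of this test. Their small p between lines was therefore partly fixed by the choice. Srpr had a log2 fold change of -0.21 in the Evi/Wls line (difference between lines 1.46, SE 0.30), Cul4a of -0.37 (1.40, SE 0.29) and Slc16a11 of -0.61 (2.10, SE 0.55). Noxo1 had 0.075 there (-1.30, SE 0.33), Cox14 had -0.031 (-1.06, SE 0.31) and Pigv had 0.26 (-1.07, SE 0.28). Gvin1, Trim30a and Irgm2 were higher in the Evi/Wls line as well, by 0.99, 0.99 and 0.82, and their effects did not differ between lines at an unadjusted p below 0.05.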

How the data were processed

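RNA of sorted lung endothelial cells was isolated with PicoPure, amplified with NuGEN SPIA, biotin-labelled and hybridised to Illumina beadchips, per the labels' protocols. The authors deposited non-normalized mean bead intensity and a detection p-value per probe, and a second table of normalized linear intensity made by a method that the sources do not name. For the 5 arrays, neqc in limma 3.58.1 (R 4.3.3) used the deposited detection p-values to correct the background, then added an offset of 16, took log2 and normalized by quantiles. A probe was kept if its detection p-value was below 0.05 on 2 or more of the 5 arrays, and the brightest such probe stood for its gene (14484 genes). Groups were compared with lmFit and eBayes, adjusting p-values over all genes by Benjamini-Hochberg. The difference between lines came from 1 fit to all 10 arrays. Figures used matplotlib 3.10.9. A gene that no array of a group detected has only a bound there, and its fold is written "at least", taken against the lowest signal among detected probes. Such a gene passed the filter only through the other group. Tests were checked on simulated data.

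Genes named are Rspo3, Wls and Cdh5, the detected Wnt genes, the 12 per direction of smallest p with non-overlapping arrays outside the interferon and MHC class I lists (symbols that only number a clone passed over), and up to 4 members of smallest p per list. Other genes were picked after their values were seen, among them list members beyond those 4, marker genes and control RNAs. The comparison, gene lists and rules were chosen with earlier results of these data known. The alternatives were background correction, normalization, the authors' values, the filter, the probe rule, the variance prior, array weights, all 10 arrays, a replicate block, sex, thresholds and leaving out each array.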

Additional observations from a re-analysis of the deposited data

How the results depend on the processing

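The count of genes at an adjusted p below 0.05, 0 in limma, was 4 with median scaling (Gvin1, Rtp4, Trim30a and Itfg2), 14 with a trended robust prior, 3 without Rspo3-WT 1 (Pgap2, Tcf15 and Sp100), 1 without Rspo3-WT 2 (Scgb3a2), so 0 to 3 over the refits without 1 array, and 0 otherwise. Where 1 Rspo3-WT array was left out, the remaining one is assumed to vary like Rspo3-iECKO. Non-overlap is easier to meet with fewer arrays, and the non-overlapping counts below rose whichever array was left out. Genes higher at an unadjusted p below 0.05 numbered 1703 with median scaling, 356 in the fit to all 10 arrays and 173 at p below 0.01. Genes lower numbered 194 with median scaling, 904 with no filter, 329 when detected on all 5 arrays, 296 with all 10 arrays and 109 at p below 0.01. Non-overlapping genes at least 2-fold higher numbered 1 with normexp of offset 50, 0 with no background correction, 77 with median scaling, 0 with the authors' values, 14 when detected on all 5 arrays, 14 with all 10 arrays, 36 with the replicate block, 295 at 1.5-fold and 28 to 92 without 1 array. Those at least 2-fold lower numbered 1, 0, 1 and 0 under the first 4 of these settings, 5 with all 10 arrays, 191 at 1.5-fold and 14 to 63 without 1 array. The difference between lines had 1470 genes at an unadjusted p below 0.05 with median scaling, and without 1 array it had 662 to 1455, and 0 to 6 at the adjusted threshold, the 6 without Evi-iECKO 1. Wls changed sign with median scaling (0.015) and without Rspo3-iECKO 1 (0.10), and Cdh5 without Rspo3-iECKO 2 (-0.055) and without Rspo3-WT 1 (-0.10). Without 1 array, Wls ranged from -0.48 to 0.10 and Cdh5 from -0.10 to 0.16. Same-numbered arrays of the groups did not deviate together (r = -0.019 and 0.00087 over genes). The deviations of the 2 Rspo3-WT arrays mirror each other, so these values are not independent. They cannot exclude that the numbers pair the samples. The replicate block gave 0 genes at the adjusted threshold and, unadjusted, 500 higher genes and 433 lower genes. The cause of these changes was not tested. For genes not detected on some arrays, signal near background limits the values.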

Other observations

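Erdr1 had the largest difference of any gene tested, at 9.48, 8.61 and 7.44 in Rspo3-iECKO and 8.12 and 4.07 in Rspo3-WT (log2 difference 2.41, SE 0.87). The arrays overlapped and the gene was picked after its values were seen. The airway secretoglobin Scgb1a1 read 6.06, 5.90 and 7.44 in Rspo3-iECKO and 8.06 and 5.20 in Rspo3-WT, and the surfactant gene Sftpc read 8.40, 7.06 and 8.35 in Rspo3-iECKO and 8.09 and 7.34 in Rspo3-WT. The replacement histone genes H2az1, H3f3a and H3f3b, which are made outside S phase as well, differed by 0.01, -0.24 and 0.26.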
